A study of Homo sapiens and Mus musculus with 15 samples.

Results

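ELL2, IGJ, MZB1, SEC11C, FKBP11, TXNDC5, FAM46C and PIGR are 8 genes that act at successive steps of making, folding and exporting antibody. They were taken by name from the gene count tables of a study of myeloma cells, where the human tables list 8 of them among 23346 genes and the mouse tables list 7 among 23329 genes. They were selected on their levels in these tables, because those differed between groups, so their own differences are given below as a description, with no test. RNA was sequenced in 15 libraries, 3 per group. Bortezomib-resistant 5TGM1 cells were kept in 20 nM bortezomib and were set against naive 5TGM1 cells, a mouse myeloma line that arose in C57Bl/KaLwRij mice. Bortezomib-resistant RPMI-8226 cells (10 nM bortezomib) and carfilzomib-resistant RPMI-8226 cells (10 nM carfilzomib) were set against naive RPMI-8226 cells, a human plasma cell myeloma line called 8226 here. Both drugs inhibit the proteasome. The resistant lines had been cultured in rising drug over several months and spent 5 days without drug before RNA was extracted, and all lines were used within 1 month of thawing. Each resistant group is 1 derived line, so whatever else changed while it was derived cannot be told apart from resistance. The labels do not say whether the 3 replicates were separate cultures, so spreads and p-values measure the variation between these libraries, which may be technical.

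A plasma cell turns most of its protein synthesis to antibody. ELL2 is a transcription elongation factor that, in plasma cells, favours the secreted over the membrane form of immunoglobulin heavy chain mRNA. SEC11C is a catalytic subunit of the signal peptidase, which trims proteins as they enter the endoplasmic reticulum (ER). MZB1 helps immunoglobulin chains assemble there, TXNDC5 is a disulfide isomerase and FKBP11 a prolyl isomerase. IGJ, now named JCHAIN, is the joining chain that links IgA and IgM into polymers. PIGR, the polymeric immunoglobulin receptor, carries those polymers across epithelia. FAM46C, now named TENT5C, is a poly(A) polymerase that stabilises mRNAs of secreted proteins and is often mutated in myeloma.

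Promoter windows of 7 of the 8 human genes, in 9 entries, were found in RefSeq (GRCh38.p14). The 250 bases before each start site were searched on both strands for CACGTG and TGACGTGG, sequences bound by XBP1, for CCACG, a part of the ER stress response element that lies within some matches of both, for the octamer ATGCAAAT, and for TATAAA, the TATA box. The first of these, CACGTG, was found in 2 entries, those of MZB1 and SEC11C, and in 6.34% of all 35116 promoters. The letters TGACGTGG were found in the TXNDC5 entry with start site 7910077, not in its other entry at 7910788, and in 0.612% of all promoters. The shorter CCACG was found in 6 of the 9 entries, which belong to 6 of the 7 genes, and in 33.5% of all promoters. The octamer and the TATA box, found in none of these windows, were in 1.63% and 10.7% of all promoters. The window of MZB1 is shown because the gene was lower in both resistant 8226 lines, at levels that overlapped, that of TXNDC5 for its longer match, and that of PIGR because its level differed most. Capitals mark the match, whose first base lies 117, 92 and 55 bases before the start site of MZB1, TXNDC5 and PIGR, in that order. The windows are chr5:139390013-139390042 (minus strand), chr6:7910151-7910180 (minus strand) and chr1:206946467-206946716 (minus strand). The printed MZB1 and TXNDC5 stretches lie inside the GENCODE v29 gene spans given below. Of the 250 bases searched, 168 for MZB1 and all 250 for SEC11C lie in annotated untranslated regions. A match of letters is a description and shows no binding.
MZB1: gaggacaatgccCACGTGgcatcttcgggg
TXNDC5: gcactggcggcTGACGTGGcgctcggcggc
PIGR: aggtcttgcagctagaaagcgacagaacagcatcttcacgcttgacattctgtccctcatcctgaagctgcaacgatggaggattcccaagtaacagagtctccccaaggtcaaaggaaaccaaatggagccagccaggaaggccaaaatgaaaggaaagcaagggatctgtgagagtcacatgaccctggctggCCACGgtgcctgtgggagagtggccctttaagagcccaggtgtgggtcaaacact

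Levels are given as CPM, read counts scaled to a common number of reads on genes, with library sizes adjusted by the TMM method. Reads on genes ran from 49097494 to 72288680 per 5TGM1 library and from 31709636 to 58419576 per 8226 library. Of 8 plasma cell markers, 7 exceeded 1 CPM in both 5TGM1 groups (Cd38 did not), and 7, 8 and 8 did in bortezomib-resistant, carfilzomib-resistant and naive 8226. Their summed level was 5059 to 5149 CPM in bortezomib-resistant and 4053 to 4257 CPM in naive 5TGM1. It was 1469 to 1483 CPM in bortezomib-resistant, 1281 to 1332 CPM in carfilzomib-resistant and 1833 to 1959 CPM in naive 8226. Single plasma cell markers went different ways. In those 8226 groups XBP1 had 316, 609 and 833 CPM and SDC1 214, 155 and 306 CPM. CD38 had 138, 238 and 87.5 CPM and TNFRSF17 145, 13.5 and 41.1 CPM. In bortezomib-resistant and naive 5TGM1, Pou2af1 had 2044 and 892 CPM and Sdc1 685 and 442 CPM. Xbp1 had 1220 and 1625 CPM and Prdm1 213 and 302 CPM. Markers of other cell types were lower in sum, and also moved between groups. In 8226, 5 monocyte and macrophage markers summed to 18.2 to 18.8 CPM in bortezomib-resistant, 164 to 177 in carfilzomib-resistant and 51.6 to 57.0 in naive cells, almost all of it ITGAM and CD68, with CD14, LYZ and CSF1R below 1 CPM. In 5TGM1, where 4 were listed, they summed to 351 to 401 CPM in bortezomib-resistant and 264 to 268 CPM in naive cells, almost all of it Cd68. In 8226, 7 B cell markers summed to 1.97 to 2.48, 3.98 to 4.30 and 9.17 to 9.51 CPM, and 4 T cell markers to 0 to 0.0545, 1.16 to 1.60 and 1.27 to 1.79 CPM, in the order bortezomib-resistant, carfilzomib-resistant and naive. The part of these markers in the differences below was not tested. In bulk RNA, fewer cells of a type and less RNA per cell cannot be told apart. Scaling by library size alone raised the median log2 fold change of all genes by 0.18 between bortezomib-resistant and naive 8226, by 0.06 between carfilzomib-resistant and naive 8226, and lowered it by 0.10 between the resistant 8226 lines. It turned the sign of no fold change of the 8 genes whose groups' libraries did not overlap.

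ELL2, the elongation factor, was high in bortezomib-resistant and low in carfilzomib-resistant 8226. The gene lies at chr5:95885098-95962071 (minus strand), with 12 exons in its principal transcript. Gene positions, and exon numbers of principal transcripts, are from GENCODE v29 (GRCh38), matched by current symbol, and not from the build behind the counts. ELL2 had 234, 232 and 221 CPM in bortezomib-resistant, 17.1, 15.7 and 17.4 CPM in carfilzomib-resistant and 95.9, 92.4 and 97.6 CPM in naive 8226. No library of a group reached the values of another group, and the naive level lay between those of the resistant lines. The log2 fold change was 1.26 ± 0.05 (SE) in bortezomib-resistant and −2.51 ± 0.06 in carfilzomib-resistant against naive 8226. Between carfilzomib-resistant and bortezomib-resistant 8226 it was −3.77 ± 0.06, a 13.7-fold difference. These comparisons share libraries, the first pair its naive ones. Ell2 had 265, 271 and 276 CPM in bortezomib-resistant and 199.9, 216 and 213 CPM in naive 5TGM1, with no overlap and a log2 fold change of 0.37 ± 0.04. ELL2 and its mouse counterpart were thus higher in both bortezomib-resistant lines than in their naive lines, by 2.40-fold in 8226 and 1.29-fold in 5TGM1.

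IGJ, the joining chain (chr4:70655541-70681817, minus strand, 4 exons), was among the most abundant transcripts of the listed genes. It took 0.239% of gene reads in bortezomib-resistant, 0.423% in carfilzomib-resistant and 0.651% in naive 8226, where it ranked 8 to 10, 3 to 4 and 3 among the listed genes by count. The immunoglobulin constant region symbols searched, IGHM and IGKC among them, are not listed for either line. These ranks and shares, and those of 5TGM1 below, do not include them. The level was 2166, 2219.65 and 2277 CPM in bortezomib-resistant, 4295, 4366 and 4202 CPM in carfilzomib-resistant and 6155, 7442 and 7087 CPM in naive 8226. The groups did not overlap, and both resistant lines lay below the naive line, bortezomib-resistant the lowest. The log2 fold change was −1.63 ± 0.07 for bortezomib-resistant and −0.69 ± 0.06 for carfilzomib-resistant against naive 8226, and 0.95 ± 0.07 for carfilzomib-resistant against bortezomib-resistant 8226. In 5TGM1 the direction was the other one. Igj had 3865, 4226 and 4321 CPM in bortezomib-resistant and 2569, 2446 and 2618 CPM in naive 5TGM1, a log2 fold change of 0.70 ± 0.05. It took 0.414% of gene reads there, against 0.254% in naive 5TGM1, and ranked 4 to 7 among genes, against 19 to 20. Whether the change of IGJ differs between the lines was not tested.

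MZB1, the chain assembly factor (chr5:139387480-139390081, minus strand, 4 exons), was lower in both resistant 8226 lines, at levels that overlapped. It had 251, 234 and 265.5 CPM in bortezomib-resistant, 254, 280.5 and 222 CPM in carfilzomib-resistant and 533, 522 and 588 CPM in naive 8226. The resistant libraries overlapped each other and lay below every naive library. The log2 fold change against naive 8226 was −1.13 ± 0.08 for bortezomib-resistant and −1.12 ± 0.08 for carfilzomib-resistant cells, and between the resistant lines it was 0.01 ± 0.08 (−0.11 on library size alone). Mzb1 was not analysed in 5TGM1.

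SEC11C, the signal peptidase subunit (chr18:59139477-59158836, plus strand, 6 exons), was lower in both resistant 8226 lines, and lowest in carfilzomib-resistant cells. It had 308, 299 and 317 CPM in bortezomib-resistant, 232, 242 and 214 CPM in carfilzomib-resistant and 439, 553 and 475 CPM in naive 8226. The log2 fold change was −0.67 ± 0.07 for bortezomib-resistant and −1.09 ± 0.07 for carfilzomib-resistant against naive 8226, and −0.43 ± 0.07 for carfilzomib-resistant against bortezomib-resistant 8226. The order of the resistant lines was therefore opposite to that of IGJ. Sec11c had 822, 858 and 856 CPM in bortezomib-resistant and 714, 652 and 687 CPM in naive 5TGM1, a log2 fold change of 0.31 ± 0.04 with no overlap.

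FKBP11, the prolyl isomerase (chr12:48921518-48926474, minus strand, 6 exons), was a less abundant transcript that followed the order of IGJ in 8226. It had 29.2, 27.8 and 29.4 CPM in bortezomib-resistant, 37.8, 38.7 and 34.5 CPM in carfilzomib-resistant and 73.7, 83.6 and 78.7 CPM in naive 8226. No groups overlapped, with log2 fold changes of −1.45 ± 0.07 for bortezomib-resistant and −1.09 ± 0.06 for carfilzomib-resistant against naive 8226. Between carfilzomib-resistant and bortezomib-resistant 8226 the value was 0.36 ± 0.07. Of the genes that overlap FKBP11 in GENCODE v29, the 8226 tables list only CCDC65, which lies on the opposite strand. Fkbp11 was barely detected in 5TGM1, with 95 reads in bortezomib-resistant (0.583 ± 0.0695 CPM, SD, n = 3) and 81 reads in naive 5TGM1 (0.489 ± 0.0932 CPM, SD, n = 3), and the libraries overlapped.

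TXNDC5, the disulfide isomerase (human gene at chr6:7881517-7910814, minus strand, 10 exons), was abundant in mouse cells. Txndc5 had 1699, 1593 and 1609 CPM in bortezomib-resistant and 1311, 1315 and 1299 CPM in naive 5TGM1, with no overlap and a log2 fold change of 0.32 ± 0.04. In the human tables TXNDC5 held 117 reads in bortezomib-resistant, 156 in carfilzomib-resistant and 80 in naive 8226, spread so widely between libraries that all 3 groups overlapped. In the GENCODE v29 annotation (GRCh38), 2658 of the 4387 exonic bases of TXNDC5, or 60.6%, are shared with a read-through transcript of the neighbouring gene BLOC1S5, and reads on 2 genes are not counted. That transcript, listed under an older symbol, held 0 reads in all 9 libraries. How many TXNDC5 reads were lost in this way was not tested, since the annotation release behind the counts is unknown, and no difference is drawn from the human count.

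FAM46C, the poly(A) polymerase (chr1:117605934-117628372, plus strand, 2 exons), was lower in both resistant 8226 lines. It had 129.95, 128 and 117 CPM in bortezomib-resistant, 199, 197 and 206 CPM in carfilzomib-resistant and 455, 368 and 499 CPM in naive 8226. The log2 fold change was −1.82 ± 0.09 for bortezomib-resistant and −1.14 ± 0.09 for carfilzomib-resistant against naive 8226, and 0.68 ± 0.09 for carfilzomib-resistant against bortezomib-resistant 8226. Naive libraries varied most, with an SD of 66.9 CPM around 441 CPM, and still lay above every resistant library. Fam46c differed little in 5TGM1, with 222, 220.1 and 215 CPM in bortezomib-resistant and 189, 202 and 209 CPM in naive cells. The libraries did not overlap, and the log2 fold change of 0.13 ± 0.04 was the smallest of the mouse genes that did not.

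PIGR, the receptor, was almost absent from both resistant 8226 lines. It had 1, 0 and 2 reads in bortezomib-resistant, 5, 7 and 4 reads in carfilzomib-resistant and 852, 584 and 778 reads in naive 8226, where its level was 18.3 ± 3.26 CPM (SD, n = 3). It passed the filter on low counts through the naive group alone and so had to differ. PIGR was 655-fold lower in bortezomib-resistant (95% exact binomial interval 224 to 3179) and 173-fold lower in carfilzomib-resistant (106 to 304) than in naive 8226. These intervals rest on counts summed over the 3 libraries of each group and cover counting error only. Markers of secretory epithelium, the usual site of PIGR, summed to 229 to 243 CPM in bortezomib-resistant, 263 to 272 CPM in carfilzomib-resistant and 302 to 315 CPM in naive 8226, with 4 of 5 above 1 CPM in each and KRT19 at or near 0. These markers went different ways. EPCAM had 46.0 CPM in bortezomib-resistant, 93.6 in carfilzomib-resistant and 166 in naive 8226, and KRT18 had 185, 168 and 134 CPM in those groups. Their part in the difference of PIGR was not tested. In 5TGM1, Pigr had 18 reads in bortezomib-resistant and 34 in naive cells, overlapping between the groups and too few to test.

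**Figure D1:**
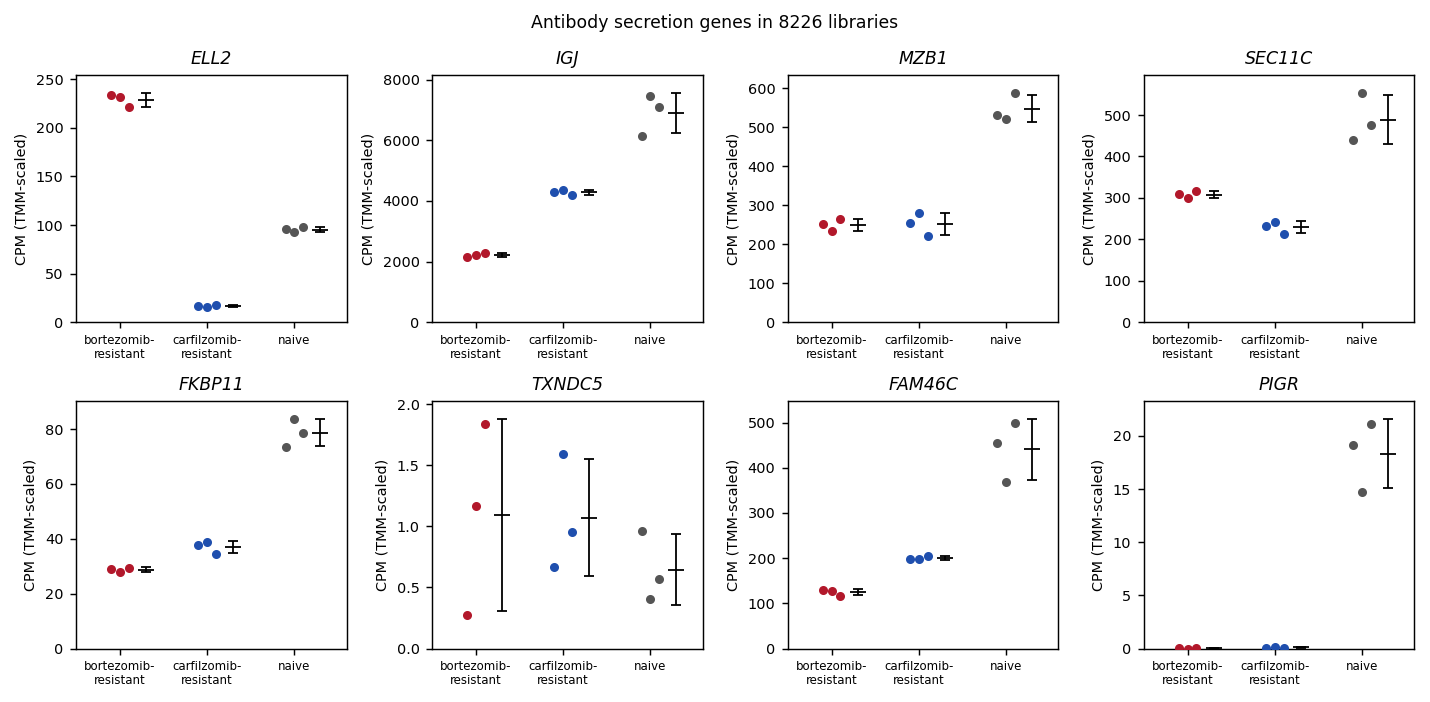
Level of each gene in the 9 8226 libraries, in TMM-scaled CPM on a linear axis from 0. Each point is 1 library, and the bar to its right is the mean ± SD of 3 libraries; ELL2 splits the resistant lines to either side of the naive libraries, and IGJ, MZB1, SEC11C, FKBP11, FAM46C and PIGR are highest in the naive libraries.

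**Figure D2:**
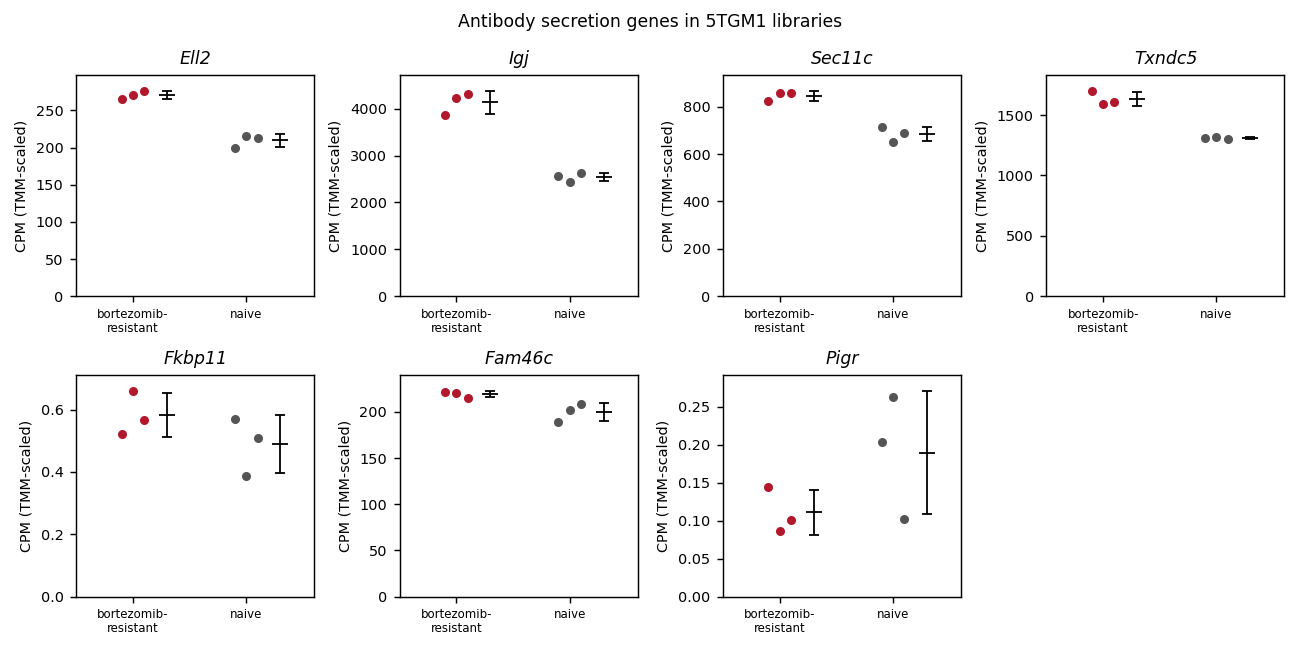
Level of the 7 listed genes in the 6 5TGM1 libraries, in TMM-scaled CPM on a linear axis from 0, with points and bars as for 8226. Ell2, Igj, Sec11c, Txndc5 and Fam46c lie higher in every bortezomib-resistant library than in any naive library, while Fkbp11 and Pigr stay below 1 CPM and overlap.

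Libraries of bortezomib-resistant and naive 5TGM1 did not overlap for 5 of the 7 listed genes. Those of bortezomib-resistant and naive 8226, and of carfilzomib-resistant and naive 8226, did not overlap for 7 of 8 genes in each comparison, PIGR among them. Those of carfilzomib-resistant and bortezomib-resistant 8226 did not overlap for 6 of 8. Over all tested genes this held for 69.7%, 79.6%, 73.1% and 79.8% in these comparisons, in that order. The choice of genes used these same values, so nothing is read from the counts.

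**Figure D3:**
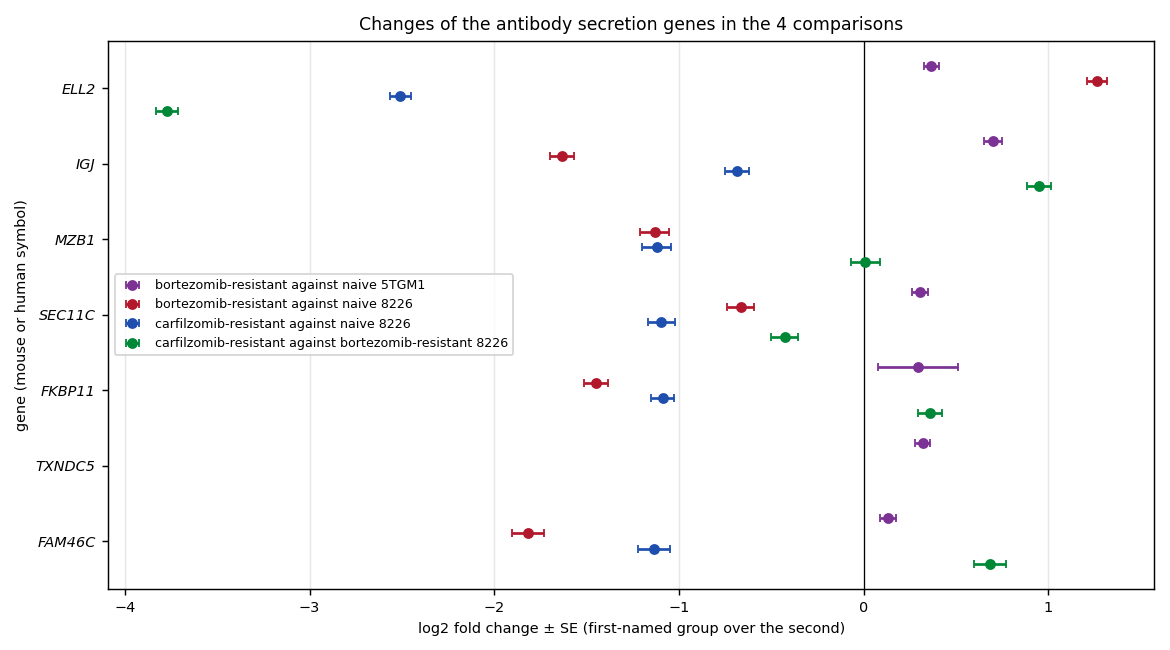
Log2 fold change ± SE of the genes in each comparison, first-named group over the second, from an edgeR fit. PIGR is left out because its fitted change rests on 3 and 16 reads, and human TXNDC5 because no difference is drawn from it; the points of the resistant 8226 lines against naive 8226 lie left of 0 except ELL2, which at 1.26 and −2.51 lies on both sides, and the 5TGM1 points lie right of 0.

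Per kilobase of transcript, IGJ stood above the rest in every 8226 group, human TXNDC5 being left out of the order. In naive 8226 the levels in CPM per kilobase were 4795 for IGJ, 664 for MZB1, 407 for SEC11C, 76.6 for FAM46C, 76.4 for FKBP11, 15.8 for ELL2 and 4.28 for PIGR. FAM46C and FKBP11 overlapped there, and the other neighbours in that order did not. In bortezomib-resistant 8226 the order was IGJ at 1544, MZB1 at 303, SEC11C at 256, ELL2 at 37.9, FKBP11 at 27.9 and FAM46C at 21.7 CPM per kilobase, with ELL2 above FKBP11 and FAM46C. In carfilzomib-resistant 8226 ELL2 lay at 2.77 CPM per kilobase, below FKBP11 at 35.9 and FAM46C at 34.9, which overlapped. Lengths are those of the principal transcript in GENCODE v29.

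Likeness of pattern was measured as the root mean square distance between centred log2 levels over the 9 8226 libraries, and is given as a description. Among the genes themselves, MZB1 and FKBP11 were nearest (0.18), followed by FKBP11 and FAM46C (0.23), MZB1 and SEC11C and then IGJ and FAM46C (both 0.24). ELL2 was at least 1.37 from each of the other 6 compared, TXNDC5 being left out. PIGR lay farther still, with FAM46C nearest to it at 2.54. Its distance depends on the 0.1 CPM added before the logarithm, since PIGR was near 0 in the resistant lines. Among 9760 other genes, SYNDIG1 (0.19) was one of those nearest to ELL2. Those nearest to IGJ were SND1 (0.09), PMM2 and PDIA5 (both 0.10). PMM2, a phosphomannomutase of the N-glycan precursor pathway, had 37.3 CPM in bortezomib-resistant, 78.7 in carfilzomib-resistant and 113 in naive 8226, and PDIA5, a disulfide isomerase, had 22.4, 38.7 and 67.8 CPM in those groups. Those nearest to MZB1 were FAM210B (0.10), PIM1 and H1FX (both 0.11).

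The opposite strand gave a measure that the choice of genes had not used. Reads antisense to the genes made up 0.256% to 0.947% of their stranded reads in 5TGM1 groups and 0% to 0.501% in 8226, below the 1.83% to 2.12% and 1.43% to 1.64% over all genes. For Ell2 the share was 0.863% in bortezomib-resistant and 0.691% in naive 5TGM1. An exact two-sided permutation test of 3 libraries against 3 cannot go below p = 0.1, the value for Ell2, so the 23 such comparisons of this share could not have passed a threshold of 0.05 and nothing is read from them.

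PIGR lies on chromosome 1 (chr1:206928518-206946466, GRCh38, GENCODE v29), and its neighbours were examined after its values had been seen. Of 12 listed protein-coding genes within 200 kb, 7 passed the filter on low counts. FAIM3, an IgM receptor of the same family next to PIGR, had 0.279 ± 0.0957 CPM in bortezomib-resistant, 71.4 ± 2.07 in carfilzomib-resistant and 113 ± 4.56 in naive 8226 (SD, n = 3 each). YOD1, a deubiquitinase on the other side, had 2 reads in bortezomib-resistant cells, and 17.7 ± 1.13 CPM in carfilzomib-resistant and 18.0 ± 1.14 CPM in naive 8226. PFKFB2, IL19 and C4BPB likewise had 3, 0 and 0 reads in bortezomib-resistant 8226, against 562, 234 and 110 reads in naive 8226. In carfilzomib-resistant 8226 they had 299, 70 and 65 reads, and the log2 fold changes against naive 8226 were −1.23 ± 0.11 for PFKFB2 (adjusted p = 8.7e-08), −2.06 ± 0.19 for IL19 (adjusted p = 3.7e-07) and −1.08 ± 0.24 for C4BPB (adjusted p = 0.0012, edgeR). IL20, IL24, FCAMR and C1orf116, in the same stretch, were near 0 in naive 8226 too, with 1, 2, 7 and 11 reads. FAIM3, PIGR, YOD1, PFKFB2, IL19 and C4BPB were thus at or near 0 in bortezomib-resistant 8226, while carfilzomib-resistant 8226 had reads of FAIM3 and YOD1 and 16 reads of PIGR in all. YOD1, PFKFB2, IL19 and C4BPB passed the filter on low counts through the other groups and so had to be lower in bortezomib-resistant 8226. How many genes elsewhere were near 0 in that line was not counted. IL10, between MAPKAPK2 and IL19, was lower in both resistant lines without falling to near 0. It had 118 reads (1.10 CPM) in bortezomib-resistant, 169 (1.10 CPM) in carfilzomib-resistant and 348 (2.89 CPM) in naive 8226. MAPKAPK2, a kinase at the edge of the window, went the other way, with 165 ± 4.28 CPM in bortezomib-resistant, 153 ± 5.20 in carfilzomib-resistant and 46.4 ± 3.48 in naive 8226. Its log2 fold change was 1.83 ± 0.06 for bortezomib-resistant (adjusted p = 2.3e-13) and 1.72 ± 0.06 for carfilzomib-resistant against naive 8226 (adjusted p = 7.5e-13, edgeR). For YOD1 between carfilzomib-resistant and naive 8226 the log2 fold change was −0.03 ± 0.09 (adjusted p = 0.81, edgeR).

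**Figure D4:**
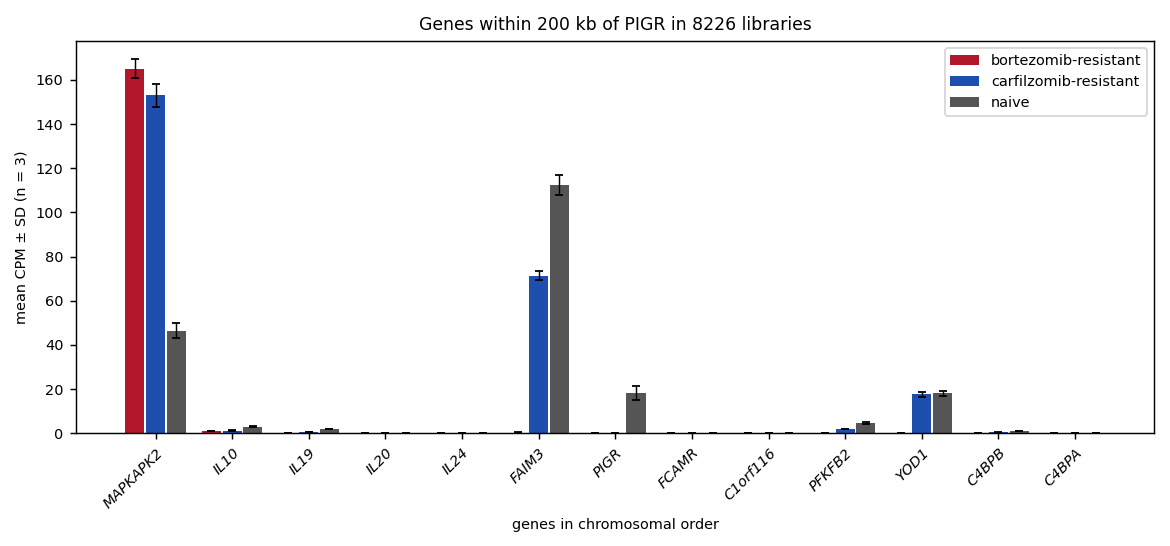
Mean CPM ± SD of 3 libraries for the protein-coding genes within 200 kb of PIGR that the 8226 tables list, in chromosomal order, on a linear axis from 0. FAIM3 and YOD1 show bars in carfilzomib-resistant and naive 8226 and none visible in bortezomib-resistant 8226, PIGR shows one in naive 8226, and MAPKAPK2 is highest in the resistant lines.

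The rest of the secretory route was described through 163 companion genes in 10 lists, none of them among the 8. In bortezomib-resistant against naive 5TGM1, 44 of the 130 tested companions had an adjusted p below 0.05 and were higher and 45 lower, with a median log2 fold change of −0.01 beside 0.00 for all genes. That is 68.5% called, where 67.2% of all 11974 tested genes were, 34.0% higher and 33.2% lower. In bortezomib-resistant against naive 8226, 27 of 139 rose and 91 fell (36 and 72 on library size alone), with a median of −0.44 beside −0.03. That is 84.9% called, where 79.8% of all 13910 tested genes were, 38.2% higher and 41.6% lower. In carfilzomib-resistant against naive 8226, 29 rose and 74 fell (38 and 70 on library size alone), with a median of −0.18 beside 0.00. That is 74.1% called, where 71.7% of all genes were, 35.0% higher and 36.7% lower. In carfilzomib-resistant against bortezomib-resistant 8226, 76 rose and 35 fell (65 and 46 on library size alone), with a median of 0.22 beside 0.02. That is 79.9% called, where 76.9% of all genes were, 39.9% higher and 37.0% lower. The shares and medians of all genes are from the TMM-scaled fit, so the counts on library size alone cannot be read against them. On library size alone the all-gene medians in these 8226 comparisons were 0.16, 0.06 and −0.08, in that order.

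Genes that act where SEC11C does, the translocation channel and signal peptidase, included 17 of 24 that fell and 4 that rose in bortezomib-resistant 8226 (median −0.54), where 41.6% of all genes fell and 38.2% rose. SEC61A1, the channel's main subunit, had 361 ± 10.4 CPM in bortezomib-resistant and 845 ± 33.9 CPM in naive 8226 (log2 fold change −1.23 ± 0.05, adjusted p = 3.8e-12, edgeR). In carfilzomib-resistant 8226, 16 of 24 fell and 1 rose (median −0.25), where 36.7% of all genes fell. SPCS1, a signal peptidase subunit, had 175 ± 6.42 CPM there and 312 ± 22.6 CPM in naive 8226 (log2 fold change −0.84 ± 0.06, adjusted p = 3.7e-09). In 5TGM1, where Sec11c itself was higher, 4 of 23 rose and 11 fell (median −0.12), where 33.2% of all genes fell. Spcs1 had 234 ± 1.18 CPM in bortezomib-resistant and 402 ± 14.9 CPM in naive 5TGM1 (log2 fold change −0.78 ± 0.04, adjusted p = 4.4e-11).

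Of the disulfide isomerases and oxidases, the company of TXNDC5, 15 of 22 rose and 4 fell in bortezomib-resistant 5TGM1 (median 0.30) and 3 did not pass, where 34.0% of all genes rose and 33.2% fell. Txndc16 and Ero1lb, an oxidase, fell by 1.03 and 0.81 on the log2 scale. Pdia5 had 125 ± 0.928 CPM in bortezomib-resistant and 62.3 ± 1.76 CPM in naive 5TGM1 (log2 fold change 1.01 ± 0.04, adjusted p = 2.1e-12), and Ero1l, another oxidase, had 829 ± 15.7 and 474 ± 9.79 CPM in those groups. In bortezomib-resistant 8226, 16 of 24 fell and 3 rose (median −0.38), where 41.6% of all genes fell, and in carfilzomib-resistant 8226, 16 fell and 4 rose (median −0.36), where 36.7% fell. PDIA4 had 236 ± 12.0 CPM in bortezomib-resistant, 594 ± 15.2 in carfilzomib-resistant and 836 ± 31.8 in naive 8226. PDIA2 had 5 reads in bortezomib-resistant 8226, 52.7 ± 3.14 CPM in carfilzomib-resistant and 70.4 ± 5.81 CPM in naive 8226. PDIA2 passed the filter on low counts through the other groups and so had to be lower in bortezomib-resistant 8226. ERP27, under 10 CPM, also fell in bortezomib-resistant 8226 (log2 fold change −6.14) and was not called in carfilzomib-resistant 8226 (0.67). Of the prolyl isomerases beside FKBP11, 6 of 6 fell in bortezomib-resistant 8226 (median −1.18), while 4 fell and 2 rose in carfilzomib-resistant 8226 (median −0.65). PPIB had 499.5 ± 28.0 CPM in bortezomib-resistant, 1248 ± 65.7 in carfilzomib-resistant and 1938 ± 116 in naive 8226. In 5TGM1, 2 of 4 fell and 1, Ppib, rose (log2 fold change 0.41 ± 0.04, adjusted p = 4.5e-07).

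Downstream, 20 of 25 N-glycosylation genes fell and 2 rose in bortezomib-resistant 8226 (median −0.57), 13 fell and 2 rose in carfilzomib-resistant 8226 (median −0.22), and 11 of 24 rose and 6 fell in 5TGM1 (median 0.03). Of all genes, 41.6%, 36.7% and 33.2% fell in these comparisons, in that order. RPN1, an oligosaccharyltransferase subunit, had 329.8 ± 13.7 CPM in bortezomib-resistant and 908 ± 57.7 CPM in naive 8226 (log2 fold change −1.46 ± 0.06, adjusted p = 4.1e-12). ER-to-Golgi transport genes were mixed, with 7 of 27 higher and 15 lower in bortezomib-resistant 8226, 8 higher and 11 lower in carfilzomib-resistant 8226, and 10 higher and 9 lower in 5TGM1. SEC16B, of the ER exit sites, had 35.6 ± 1.41 CPM in carfilzomib-resistant and 4.22 ± 0.444 CPM in naive 8226 (log2 fold change 3.07 ± 0.09, adjusted p = 1.2e-13), and 8 reads in bortezomib-resistant 8226. It passed the filter on low counts through the other groups and so had to be lower in bortezomib-resistant 8226.

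**Figure D5:**
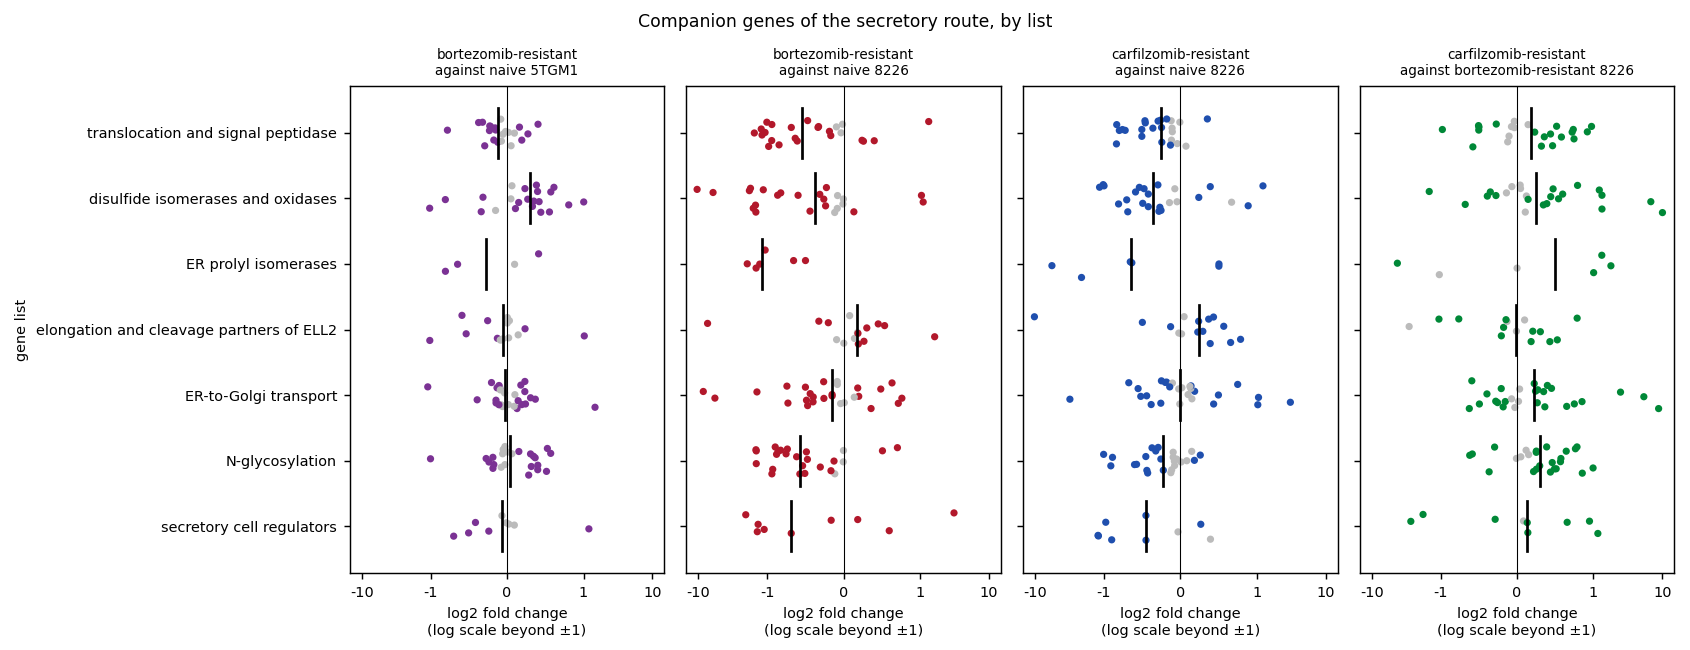
Log2 fold change of each tested companion gene in 7 lists, per comparison, first-named group over the second; the axis is linear between −1 and 1 and logarithmic beyond. Coloured points passed an adjusted p below 0.05, grey points did not, and black bars are list medians, which lie left of 0 in 6 lists for bortezomib-resistant against naive 8226; points far beyond ±5 belong to genes near 0 reads in a group and depend on the fit's prior count.

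Partners of ELL2 in elongation and 3′ end cleavage moved in both directions. In bortezomib-resistant 8226, 7 of 15 rose and 3 fell (median 0.18), in carfilzomib-resistant 8226, 9 rose and 3 fell (median 0.24), and in 5TGM1, 2 of 15 rose and 5 fell (median −0.05). The shares called were 66.7%, 80.0% and 46.7%, where 79.8%, 71.7% and 67.2% of all genes were called. AFF4, a scaffold of the super elongation complex, had 168 ± 8.52 CPM in bortezomib-resistant, 80.7 ± 3.32 in carfilzomib-resistant and 54.5 ± 1.80 in naive 8226. It rose by 1.62 ± 0.06 in bortezomib-resistant 8226 on the log2 scale (adjusted p = 4.8e-13). AFF1, another scaffold, had 94.8 ± 8.92 CPM in bortezomib-resistant, 164 ± 6.84 in carfilzomib-resistant and 94.7 ± 12.9 in naive 8226. CSTF2, the cleavage factor through which poly(A) site choice in heavy chain mRNA has been studied, rose in both resistant 8226 lines. It had 75.6 ± 1.18 CPM in bortezomib-resistant, 87.2 ± 1.64 in carfilzomib-resistant and 55.3 ± 2.11 in naive 8226. Its log2 fold change against naive 8226 was 0.45 for bortezomib-resistant and 0.66 for carfilzomib-resistant cells (adjusted p = 1.2e-08 for the latter, edgeR). Eaf1, an ELL-associated factor, had 55.9 ± 0.326 CPM in bortezomib-resistant and 114 ± 3.29 CPM in naive 5TGM1 (log2 fold change −1.03 ± 0.04, adjusted p = 1.7e-12). CCNT2 and EAF1 fell in bortezomib-resistant 8226 by 0.33 and 0.20 on the log2 scale, and neither passed on library size alone. AFF3, the other partner that fell there, had 2 reads in bortezomib-resistant, 0 in carfilzomib-resistant and 435 in naive 8226. It passed the filter on low counts through the naive group alone and so had to fall in both resistant lines.

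Relatives of FAM46C and PIGR were near 0 in some groups and not in others. FAM46A had 228 reads in bortezomib-resistant, 0 in carfilzomib-resistant and 91 in naive 8226, where 3 reads over the carfilzomib-resistant group would be 0.0198 CPM. FAM46A passed the filter on low counts through the other groups and so had to be lower in carfilzomib-resistant 8226. Fam46a had 1 read in bortezomib-resistant and 767 in naive 5TGM1. Of the PIGR family, CD300A had 0.537 ± 0.137 CPM in bortezomib-resistant, 46.7 ± 0.771 in carfilzomib-resistant and 42.2 ± 2.24 in naive 8226. CD300LF had 0 reads in bortezomib-resistant 8226, 30.9 ± 0.675 CPM in carfilzomib-resistant and 1.16 ± 0.223 CPM in naive 8226. The 4 tested members of this family all fell in bortezomib-resistant 8226, where 41.6% of all genes fell. CD300C and CD300LF had 0 reads there, passed the filter on low counts through other groups and so had to fall. In carfilzomib-resistant 8226, CD300LF rose and FAIM3 fell. Cd300a fell to 5 reads in bortezomib-resistant 5TGM1, against 790 reads in naive 5TGM1. Like Fam46a, it passed the filter on low counts through the naive group alone and so had to fall. Of the immunoglobulin list, 4 genes were tested in 8226, of which IGLL5, VPREB1 and VPREB3 fell in both resistant lines. Of all genes, 41.6% fell in bortezomib-resistant and 36.7% in carfilzomib-resistant 8226. VPREB1 had 4 reads in bortezomib-resistant, 1 in carfilzomib-resistant and 118 in naive 8226. It passed the filter through the naive group alone and so had to fall. CD5L, which binds IgM polymers, had 5 reads in bortezomib-resistant, 155 in carfilzomib-resistant and 20 in naive 8226. Constant region genes were not analysed here, since none was listed under the symbols searched.

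Regulators of the secretory programme moved in both directions. Of 9, 3 rose and 6 fell in bortezomib-resistant 8226 (median −0.69), 1 rose and 6 fell in carfilzomib-resistant 8226 (median −0.45), and 1 rose and 4 fell in 5TGM1 (median −0.07). The shares called were 100%, 77.8% and 55.6%, where 79.8%, 71.7% and 67.2% of all genes were called. XBP1, which switches on ER expansion, had 316 ± 16.4 CPM in bortezomib-resistant, 609 ± 31.1 in carfilzomib-resistant and 833 ± 20.7 in naive 8226, the same order as IGJ, FKBP11 and FAM46C. It fell by 1.40 ± 0.06 in bortezomib-resistant (adjusted p = 3.2e-12) and by 0.45 ± 0.06 in carfilzomib-resistant 8226 (adjusted p = 2.9e-06) on the log2 scale. PRDM1, the plasma cell repressor BLIMP1, fell by 1.36 ± 0.06 in bortezomib-resistant 8226 (adjusted p = 9.1e-12) and fell by 1.22 ± 0.06 in carfilzomib-resistant 8226 (adjusted p = 4.5e-11). IRF4, a factor on which myeloma cells depend, had 541 ± 13.9 CPM in bortezomib-resistant, 155 ± 5.44 in carfilzomib-resistant and 358 ± 20.0 in naive 8226, the order of ELL2. Its log2 fold change was −1.80 ± 0.06 between carfilzomib-resistant and bortezomib-resistant 8226 (adjusted p = 1.3e-13). In bortezomib-resistant 5TGM1, where Igj was higher, Xbp1 fell by 0.41 ± 0.04 (adjusted p = 2.5e-07) and Prdm1 by 0.50 ± 0.04 (adjusted p = 3.5e-08). Irf4 had 825 ± 30.2 CPM in bortezomib-resistant and 772 ± 22.7 CPM in naive 5TGM1 (adjusted p = 0.055). Pou2af1, a coactivator at octamer sites, rose there to 2044 ± 11.1 CPM, against 892 ± 7.21 CPM in naive 5TGM1 (adjusted p = 1.1e-13). XBP1, PRDM1, IRF4 and POU2AF1 are also plasma cell markers, so the marker sums above hold them.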

How the data were processed

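RNA of 15 libraries was sequenced. The authors deposited STAR gene tables of raw, whole-number counts, with a row per symbol and 1 column each for both strands together, one strand and the other. STAR and the builds mm10, hg19, GRCm38 and GRCh37 are named in the submitters' processing notes, with no role. Its version, the annotation release and the kit's strand are not given in the sources used here. From the values themselves, which put nearly all reads in column 4, that column was used. The 4 leading rows (totals outside genes) were left out of library sizes. Reads mapping to several places, 15.3% to 16.3% of reads in 5TGM1 and 8.95% to 10.9% in 8226, and reads ambiguous between genes, 0.602% to 0.633% and 0.951% to 1.14%, were not counted to genes, which undercounts overlapping or duplicated genes. Reads on no gene made up 10.6% to 12.0% and 10.4% to 16.6%, and unmapped reads 5.62% to 6.04% and 1.04% to 1.67%.

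Counts were tested in R 4.3.3 with edgeR 4.0.16 (filterByExpr, TMM factors 0.996 to 1.00 in 5TGM1 and 0.937 to 1.08 in 8226, quasi-likelihood F test, Benjamini-Hochberg over all 11974 or 13910 tested genes). Genes with an adjusted p under 0.05 were called. The 6 mouse libraries shared a fit, as did the 9 human ones. SEs were derived from F, and CPM are means ± SD over 3 libraries. The fit was tested on simulated data. Replicates differed beyond counting noise, at a chi-square of 3.98 to 25.8 per degree of freedom over 15 pairs, so none was merged in the fits. The PIGR ratios and their intervals used counts summed over the 3 libraries of each group. Those intervals leave out the variation between libraries and are too narrow for it. A count of 0 allows 3 reads, or 0.0415 to 0.0611 CPM per 5TGM1 library and 0.0514 to 0.0946 CPM per 8226 library. Such limits cover counting error only.

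The 8 genes, the companion lists and the rules were chosen with earlier results of these data known. Named are the 8 genes and some of those the rule allows, which takes, per companion list and comparison, up to 2 called genes that moved most in each direction and reach 10 CPM, plus XBP1, PRDM1 and IRF4, and the 3 genes most like ELL2, IGJ and MZB1 (an unnamed locus was left out, and 1 gene is not reported here). List members under 10 CPM, MAPKAPK2 and the other neighbours of PIGR, and CD5L were named after their values were seen. Symbols were matched to GENCODE v29 for loci and lengths, and to RefSeq for promoters. Alternatives were DESeq2 1.42.0, library size alone, no filter, counts without strand, 2-group fits, a replicate block and leaving out each library.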

Additional observations from a re-analysis of the deposited data

Results flagged for a closer look

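Some genes are listed below whose bortezomib-resistant libraries all lay on one side of the naive libraries in 8226 and on the other in 5TGM1. Over all tested genes, libraries of these groups did not overlap for 79.6% in 8226 and 69.7% in 5TGM1. The share of genes on opposite sides was not counted, so nothing is read from the number listed. The genes were matched between species by symbol, and the difference between the lines was not tested itself. Values are log2 fold changes of bortezomib-resistant against naive cells, in 8226 first and in 5TGM1 second. Other companions called in opposite directions are left out, among them P4HB (−1.48 and 0.55), PRDX4 (−1.47 and 0.42) and POU2F2 (3.10 and −0.70).

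Among the antibody secretion genes, IGJ was at −1.63 and 0.7, FAM46C at −1.82 and 0.13, and SEC11C at −0.67 and 0.31. Of the translocation genes, SSR2 was at −1.02 and 0.4, and SEC61A2, a second channel subunit, at 1.33 and −0.37. Of the folding enzymes, PDIA4 was at −1.82 and 0.61, PDIA5 at −1.6 and 1.01, and PPIB at −1.96 and 0.41. Of the N-glycosylation genes, RPN1 was at −1.46 and 0.06 (the mouse value missed the threshold), RPN2 at −0.62 and 0.53, PRKCSH at −0.9 and 0.57, ALG1 at −1.45 and 0.15, and ALG6 at 0.7 and −0.19. Of the transport genes, SEC23B was at 0.18 and −0.39, SEC24C at 0.2 and −1.1, and KDELR3 at −8.52 and 0.37, where the human value rests on 4 reads in bortezomib-resistant cells. KDELR3 passed the filter on low counts through the other groups and so had to be lower in bortezomib-resistant 8226. POU2AF1, the octamer coactivator, was at −1.11 and 1.2.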

How the results depend on the processing

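No alternative turned the sign of a fold change of the 8 genes where the groups' libraries did not overlap. Between the resistant 8226 lines, where they did, the alternatives ran from −0.11 to 0.10 for MZB1 and from −0.53 to 0.56 for TXNDC5. Scaling by library size alone moved the differences between bortezomib-resistant and naive 8226 most, ELL2 to 1.45, IGJ to −1.45, MZB1 to −0.94, FKBP11 to −1.26, SEC11C to −0.48 and FAM46C to −1.63. Leaving out bortezomib-resistant replicate 2 or 3 moved the fitted change of PIGR to −8.70 and −10.07, since it rests on 3 reads. Called companion genes numbered 81 to 94 when 1 library was left out and 85 to 92 under the other settings in 5TGM1, where the full fit called 89. They numbered 113 to 117 and 108 to 120 in bortezomib-resistant against naive 8226 (118), 98 to 109 and 103 to 108 in carfilzomib-resistant against naive 8226 (103), and 106 to 111 and 109 to 116 in carfilzomib-resistant against bortezomib-resistant 8226 (111). A left-out library left at least 2 in each group. With the replicate number as a block, 85, 118, 103 and 109 were called in these comparisons. Same-numbered libraries deviated together at correlations of only −0.12 to 0.21, not over 0.1 in every pair of any comparison, so the numbers were not taken as a pairing. Irf4 in 5TGM1 passed the threshold under DESeq2, with no filter, without bortezomib-resistant replicate 3 and without naive replicate 2. The calls of CSTF1 in carfilzomib-resistant against naive 8226 and of PRDM1 between the resistant 8226 lines were lost under several settings, library size alone and the replicate block among them; the cause was not tested. Depth limits PIGR in the resistant lines, Fkbp11 and Pigr, whose differences could not be resolved beyond the intervals given or were not detectable.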
